A study of Equus caballus with 9 samples.

Results

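Plastic-adherent cells grown from horse fat were compared with plastic-adherent cells grown from horse bone marrow, both from untreated animals, to describe how the tissue of origin shows in gene expression. The comparison used 6 of the 9 arrays of the series, the 3 titled AD-MSC and the 3 titled BM-MSC, and its members were all probe sets that the array's annotation ties to exactly 1 gene symbol, 16789 of 30559, naming 16661 genes. The adipose samples came from tailhead fat, the pad over the base of the tail, of healthy control horses. They carry no horse label, so it is not known whether they share animals with another group. The blood-derived samples, whose values are given for orientation, came from mononuclear cells of 3 other horses bled 2 h after electroacupuncture. The bone marrow samples came from healthy horses labelled Horse 1, Horse 2 and Horse 3, with no treatment. All 3 groups were separated over Ficoll-Paque, plated on uncoated plastic and kept for 96 h in Ham's F-12 and low-glucose DMEM with 15% fetal bovine serum. Cells that did not attach were then discarded, and 100 ng of total RNA of the attached cells was amplified and hybridised.

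Mesenchymal stromal cells are spindle-shaped, plastic-adherent connective tissue cells that can be driven towards bone, cartilage or fat in culture. In fat they derive from perivascular and fibroblastic precursors of adipocytes, and in bone marrow from the stroma that lays down bone matrix and feeds blood stem cells through factors such as KITLG and CXCL12. Cultured stromal cells of any source secrete collagen, which is hydroxylated and folded in the endoplasmic reticulum, trimmed outside the cell and crosslinked by lysyl oxidases. They can also take on a contractile, myofibroblast state under TGF-beta and mechanical tension. Cultures harvested after a single short plating can still hold other adherent cells of their tissue, such as macrophages.

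The labelled cell type was checked against surface and matrix markers. Expression is given as log2 intensity, and the 3 values of a group are in the order of its replicates 1, 2 and 3. THY1, a stromal surface glycoprotein, was at 9.24, 9.33 and 9.58 in adipose cells and at 9.90, 9.48 and 10.40 in bone marrow cells. COL1A2, a chain of type I collagen, was at 8.61, 7.55 and 8.22 in adipose cells and at 11.30, 11.12 and 11.30 in bone marrow cells. These stromal genes were well above the median of all deposited values, 4.62, on all 6 arrays. PTPRC, the common leukocyte antigen, was at 3.53, 2.57 and 3.33 in adipose cells and at 4.02, 3.38 and 4.51 in bone marrow cells, and ITGAM, an integrin of myeloid cells, was at 2.92 to 3.55 in adipose cells and at 3.40 to 3.48 in bone marrow cells. PTPRC and ITGAM were thus below 4.62 on all 6 arrays. Other blood cell markers were not all so dim. CD79A, a B cell marker, averaged 5.66 in adipose cells and 5.67 in bone marrow cells, and CD34 averaged 5.13 and 4.20. PDGFRB, a stromal and pericyte receptor, was itself only at 4.91 to 5.03 in adipose cells and at 4.95 to 5.20 in bone marrow cells. CD14 had no probe set naming it alone.

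An individual array stood apart from its group in 2 respects. The second adipose array was the highest of the 6 in all 30 measured genes of mitosis, with a mean level of 7.78 over these genes, against 5.70 and 6.57 on adipose arrays 1 and 3 and 4.66 to 5.07 on the bone marrow arrays. The third bone marrow array was the highest in 20 of 24 interferon-response genes. Its mean level over them was 8.55, while the adipose arrays were at 5.49 to 5.82 and the other bone marrow arrays at 5.88 and 5.93. Results that rest on these arrays are given with and without them. Pearson's r over all probe sets was 0.961 to 0.968 among adipose arrays, 0.975 to 0.982 among bone marrow arrays and 0.937 to 0.952 between an adipose and a bone marrow array. The median SD of a gene over 3 arrays was 0.21 in adipose and 0.13 in bone marrow cells.

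Of all 30559 probe sets, 1857 (6.08%) differed between adipose and bone marrow cells at an adjusted p under 0.05 in limma's moderated test, 865 (2.83%) higher and 992 (3.25%) lower in adipose cells. Among those naming 1 gene, 1378 of 16789 (8.21%) passed, 581 (3.46%) higher and 797 (4.75%) lower. At least a 2-fold difference was found in 324 of the higher and 438 of the lower ones, and at least an 8-fold difference in 42 and 73. Without adipose array 3 the number of called probe sets was 1077, and without bone marrow arrays 1, 2 and 3 it was 849, 926 and 994. The smallest called difference was 0.41 on the log2 scale, and the median standard error of a difference was 0.17. Differences below are adipose minus bone marrow on the log2 scale (n = 3 arrays each), and folds are computed from them. The sign ± gives the standard error of the limma fit. The fit estimates the spread over all 9 arrays of the series. The blood-derived arrays therefore enter ± and the adjusted p, which can be larger or smaller than the compared groups alone would give. Fitted alone, the 6 adipose and bone marrow arrays called 1245 probe sets. Of the 1857 called over 9 arrays, 1102 (59.3%) were among these. The files do not show which dim probe sets exceeded background. Folds in which the lower group's mean was under 4.62 hold for the deposited values alone. Fewer cells of a type and less RNA per cell of that type cannot be told apart in these bulk samples, nor can the tissue and any separate processing of the adipose arrays.

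**Figure D1:**
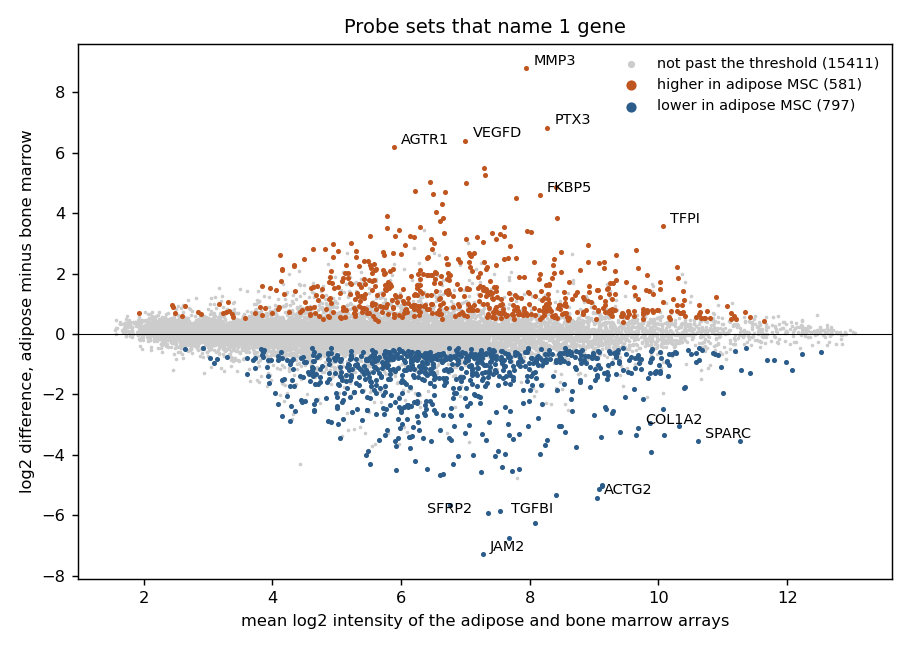
The log2 difference, adipose minus bone marrow, on the vertical axis against the mean log2 intensity over both groups for each probe set naming 1 gene. Coloured points passed limma's adjusted p under 0.05 (581 higher and 797 lower in adipose cells), grey points did not, and named points include MMP3 at a difference of 8.80 and JAM2 at -7.30.

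The plot of difference against level shows called genes in both directions over the whole range of intensities, with most of the labelled genes bright in one group and near the median of the array or below it in the other. The genes furthest up in adipose cells included secreted and surface proteins. MMP3, stromelysin, a metalloproteinase that cleaves proteoglycans and other matrix proteins, was at 12.43, 12.24 and 12.36 in adipose cells and at 3.54, 3.31 and 3.78 in bone marrow cells, a difference of 8.80 ± 0.30 (444.9-fold, adjusted p = 1.32e-05). No other probe set naming 1 gene differed by as much, and within each group the readings were close together. PTX3, a soluble pattern-recognition protein made by stromal and myeloid cells, was at 11.97, 11.45 and 11.64 in adipose cells and at 4.25, 5.54 and 4.81 in bone marrow cells (6.82 ± 0.59, 112.9-fold, adjusted p = 0.000577). VEGFD, a growth factor for lymphatic vessels, was at 10.71, 9.40 and 10.50 in adipose cells and at 3.97, 3.46 and 3.97 in bone marrow cells (6.40 ± 0.35, 84.4-fold, adjusted p = 8.63e-05). AGTR1, the receptor through which angiotensin II constricts vessels, was at 9.33, 8.11 and 9.51 in adipose cells and at 2.91, 2.81 and 2.67 in bone marrow cells (6.18 ± 0.40, 72.8-fold, adjusted p = 0.000191). The groups lay far apart in all 4 of these genes. ALDH1A1, which oxidises retinal to retinoic acid, varied more, with 10.90, 8.58 and 10.64 in adipose cells and 5.85, 3.69 and 4.11 in bone marrow cells (5.49 ± 0.72, 45.1-fold, adjusted p = 0.00389).

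Further large rises were those of MRAP, an accessory protein of the ACTH receptor, and of LAMA2, the laminin chain of muscle and nerve basement membranes. MRAP was at 9.29, 9.41 and 11.09 in adipose cells and at 4.75, 4.44 and 4.84 in bone marrow cells (5.25 ± 0.44, adjusted p = 0.000487). LAMA2 was at 9.46, 8.48 and 8.98 in adipose cells and at 4.02, 4.08 and 3.70 in bone marrow cells (5.04 ± 0.30, adjusted p = 0.000134). Among the 15 largest rises were also ARMC12, the lysosomal membrane protein LAPTM4B, the lipid transporter family member ABCA9, CMTM8, the glucocorticoid-induced chaperone partner FKBP5 and F2RL2, a thrombin receptor, with differences from 4.50 to 5.005. The other two, LOC100071946 (4.64 ± 0.81) and GPR171 (4.30 ± 0.76), varied widely among adipose arrays, at 10.17, 9.57 and 6.69 and at 9.37, 6.76 and 10.22. Their adjusted p-values were 0.014 and 0.0148. LOC100071946 missed the threshold without bone marrow array 2 (0.0502) or 3 (0.0549), and GPR171 missed it without bone marrow array 1 (0.062) or 2 (0.0511). GPR171 also missed it over the 6 adipose and bone marrow arrays alone (0.0542).

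On the other side stood JAM2, a junctional adhesion molecule of endothelial and stromal cells, at 3.80, 3.48 and 3.59 in adipose cells and 11.09, 11.03 and 10.63 in bone marrow cells (-7.30 ± 0.24, 157.2-fold lower, adjusted p = 1.32e-05). SFRP2, a secreted antagonist of Wnt ligands, was at 4.59, 4.06 and 4.52 in adipose cells and at 10.44, 10.48 and 10.06 in bone marrow cells (-5.93 ± 0.93, adjusted p = 0.00899). TGFBI, an adhesive extracellular protein that TGF-beta induces, was at 4.92, 4.72 and 4.19 in adipose cells and at 10.58, 10.18 and 10.66 in bone marrow cells (-5.86 ± 0.23, adjusted p = 1.93e-05). All 3 were dim in adipose cells and bright in bone marrow cells, with no overlap. SYTL2, a vesicle-docking protein, differed by -5.67 ± 0.37 (adjusted p = 0.000208), CTHRC1, a secreted collagen-domain protein, by -5.04 ± 0.33 (adjusted p = 0.000209), DPYSL3, a cytoskeletal regulator, by -4.67 ± 0.25 (adjusted p = 8.63e-05) and EDIL3, an integrin ligand, by -4.58 ± 0.45 (adjusted p = 0.000975). LOC100067869 (-6.76 ± 0.24) and LOC100070893 (-6.25 ± 0.45), which the annotation gives no name, were also among the 15 largest falls. SAA1, an acute-phase apolipoprotein, was lower on each of its 3 probe sets, by 5.34, 5.14 and 2.68 on the log2 scale. All the leading genes but LOC100071946 and GPR171 passed at an adjusted p under 0.05 in each of 19 alternative fits that held them, which include leaving out every array in turn. These fits are what is meant by settings below.

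The blood-derived cells, for orientation, were near the bone marrow cells in some of these genes and near the adipose cells in others. TGFBI was at 10.70, 11.01 and 11.27 and ACTG2 at 12.34, 12.65 and 12.53 in blood-derived cells. JAM2 was at 5.52, 5.39 and 4.68 there, and MMP3 at 4.15, 4.35 and 3.08.

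**Figure D2:**
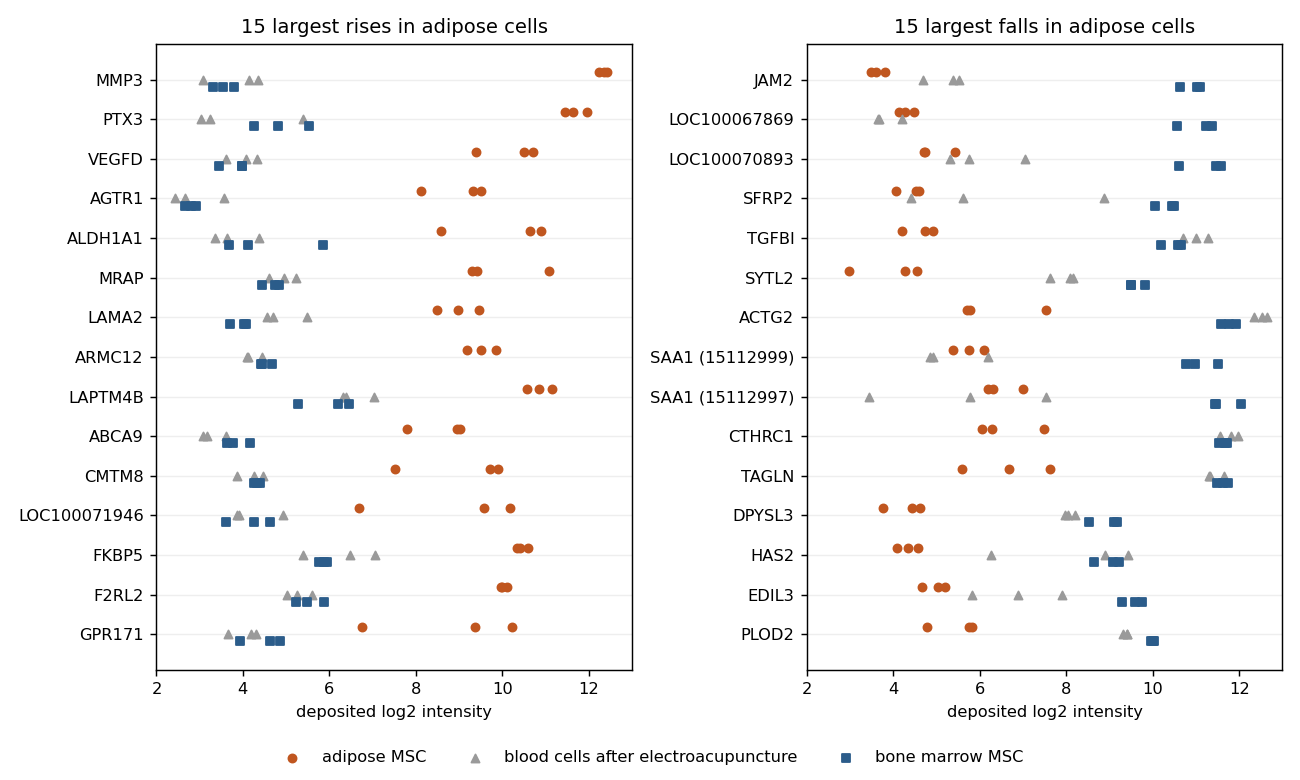
Log2 intensity on each array for the leading genes in both directions, with adipose arrays as circles, blood-derived arrays as triangles and bone marrow arrays as squares. The genes were chosen for a large difference with no overlap of the groups, and what the plot adds is the spread within a group, as with MMP3 at 12.24 to 12.43 in adipose cells and 3.31 to 3.78 in bone marrow cells.

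The plot of the leading genes by array shows the wider scatter of adipose arrays in ALDH1A1, ACTG2 and GPR171. To describe the difference by function, 53 gene lists were drawn up and each is described by the number of its measured members that passed, taking for each gene its brightest probe set. Over all 16661 genes the same count was 1364 (8.19%), 573 higher (3.44%) and 791 lower (4.75%) in adipose cells, and the median difference was 0.00. All 3 adipose arrays were above all 3 bone marrow arrays in 13.9% of genes and below all of them in 15.5%. The lists overlap and were not tested as sets. Where a gene is called higher or lower with no further remark, it passed at an adjusted p under 0.05 in all 19 fits.

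The enzymes that modify and crosslink collagen were lower in adipose cells in 16 of 21 cases and higher in 1, with a median difference of -1.42. In 19 of the 21 all adipose arrays were below all bone marrow arrays. Of the 16 falls 11 passed in every setting, and between 11 and 16 members passed when single arrays were left out. PLOD2, the lysyl hydroxylase that prepares collagen telopeptides for crosslinking, was at 5.75, 5.83 and 4.78 in adipose cells and at 9.997, 9.95 and 10.04 in bone marrow cells (-4.54 ± 0.25, adjusted p = 8.63e-05). The prolyl hydroxylase subunits P4HA3 (-3.32 ± 0.18, adjusted p = 8.63e-05), P4HA1 (-2.96 ± 0.21, adjusted p = 0.000258) and P4HA2 (-1.22 ± 0.17, adjusted p = 0.00584), which stabilise the triple helix, were all lower. P4HA1 was at 8.92, 8.07 and 8.20 in adipose cells and at 11.45, 11.37 and 11.24 in bone marrow cells. SERPINH1, the collagen chaperone, was at 6.88, 7.19 and 6.73 in adipose cells and at 10.21, 9.29 and 10.42 in bone marrow cells (-3.04 ± 0.30, adjusted p = 0.001). LOXL2, a crosslinking oxidase, differed by -2.53 ± 0.21 (adjusted p = 0.000469), PLOD1 by -2.27 ± 0.22 (adjusted p = 0.00094) and BMP1, the procollagen C-proteinase, by -1.44 ± 0.18 (adjusted p = 0.00294). Members from hydroxylation to crosslinking were lower. LOX itself was at 7.25, 7.84 and 7.04 in adipose cells and at 10.03, 9.71 and 10.08 in bone marrow cells, yet its adjusted p of 0.0216 became 0.0531 without adipose array 1, 0.0747 without adipose array 3, and 0.0758, 0.0616 and 0.0748 without bone marrow arrays 1, 2 and 3. The one member that was higher in adipose cells was PCOLCE2, an enhancer of procollagen cleavage, at 9.42, 9.49 and 8.68 in adipose cells and 5.36, 6.20 and 6.07 in bone marrow cells (3.32 ± 0.41, adjusted p = 0.00297).

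The collagens themselves fell in 7 of 20 cases with none higher, a median of -0.46, and the same count of 7 whichever array was left out. COL1A1 was at 8.44, 7.38 and 8.09 in adipose cells and at 10.70, 10.57 and 10.47 in bone marrow cells (-2.61 ± 0.24, adjusted p = 0.000785), and its partner COL1A2 differed by -3.11 ± 0.26 (adjusted p = 0.000487). COL3A1, of pliable connective tissue, was at 6.79, 6.42 and 6.05 in adipose cells and at 8.96, 9.15 and 8.82 in bone marrow cells (-2.56 ± 0.21, adjusted p = 0.000486). COL12A1, which decorates fibril surfaces, differed by -3.44 ± 0.41 (adjusted p = 0.0025), COL11A1 by -2.98 ± 0.19 (adjusted p = 0.000174), COL5A2 by -2.13 ± 0.18 (adjusted p = 0.000548) and COL5A1 by -1.25 ± 0.18 (adjusted p = 0.0062). The called members were all fibrillar or fibril-associated chains. Among members that did not pass, the beaded-filament chain COL6A1 was at 6.96 ± 0.48 in adipose cells and 7.34 ± 0.08 in bone marrow cells (SD, n = 3 each), and the basement membrane chain COL4A1 differed by 0.05 ± 0.21 (adjusted p = 0.929).

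Matrix glycoproteins were lower in 10 of 35 cases, with a median of -0.67 and 8 of the 10 kept in every setting. SPARC, a collagen-binding protein of remodelling tissue, was at 9.46, 8.66 and 8.37 in adipose cells and at 12.31, 12.36 and 12.49 in bone marrow cells (-3.56 ± 0.25, adjusted p = 0.000237). Fibronectin, FN1, was at 6.50, 5.98 and 6.04 in adipose cells and at 9.36, 9.10 and 8.97 in bone marrow cells (-2.97 ± 0.26, adjusted p = 0.000579). TNC, the tenascin of tendon and healing wounds, was at 2.94, 4.04 and 4.02 in adipose cells and at 8.48, 7.97 and 8.09 in bone marrow cells (-4.51 ± 0.32, adjusted p = 0.000237). In all of these the bone marrow arrays were within 1 log2 unit of each other. THBS2 (-3.31 ± 0.36, adjusted p = 0.00186), SMOC1 (-3.19 ± 0.39, adjusted p = 0.0031) and EFEMP2, a fibulin needed for elastic fibres (-1.78 ± 0.23, adjusted p = 0.00378), were lower too. MFAP5, a microfibril protein, was at 8.37, 5.98 and 9.92 in adipose cells and at 5.23, 4.33 and 4.34 in bone marrow cells, a difference of 3.46 ± 0.91 that missed the threshold (adjusted p = 0.0641) and passed without adipose array 2 (0.0117). Without that array 2 members of the list were higher, and without blood-derived array 1 or 3, 1 was.

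Proteoglycans and hyaluronan genes were lower in 6 of 23 cases and all 6 were kept in every setting. VCAN, the large hyaluronan-binding proteoglycan versican, was at 8.10, 7.43 and 7.82 in adipose cells and at 10.94, 10.98 and 11.13 in bone marrow cells (-3.24 ± 0.18, adjusted p = 8.63e-05). HAS2, a hyaluronan synthase, was at 4.08, 4.58 and 4.33 in adipose cells and at 9.22, 9.08 and 8.63 in bone marrow cells (-4.65 ± 0.70, adjusted p = 0.00764). SDC2 (-3.75 ± 0.55, adjusted p = 0.00704), BGN (-2.16 ± 0.15, adjusted p = 0.00021), FMOD (-2.38 ± 0.37, adjusted p = 0.00848) and LUM (-0.91 ± 0.12, adjusted p = 0.00382) made up the rest. The fall did not extend to decorin, DCN, another small collagen-binding proteoglycan, at 12.93, 12.67 and 12.89 in adipose cells and 12.89, 12.78 and 12.87 in bone marrow cells (-0.02 ± 0.54, adjusted p = 0.991). CD44, the hyaluronan receptor, was at 8.43, 8.56 and 8.74 in adipose cells and at 7.85, 7.70 and 7.94 in bone marrow cells (0.75 ± 0.14, adjusted p = 0.0178), a call lost without adipose array 3 (0.0571) or bone marrow array 1 (0.0637) or 2 (0.0737). Without bone marrow array 3, 2 members of the list were higher. Of 30 metalloproteinases and their inhibitors MMP3 alone was higher, and 3 were lower, while 2 were higher without adipose array 2 or blood-derived array 1 or 3. None of these falls passed without bone marrow array 2, among them that of TIMP1, at 11.82, 12.02 and 11.82 in adipose cells and 12.49, 12.70 and 12.49 in bone marrow cells (-0.67 ± 0.12, adjusted p = 0.0133, and 0.0557 without that array). MMP1, interstitial collagenase, differed by 2.62 ± 1.46 (adjusted p = 0.353), with 8.93, 6.92 and 7.85 in adipose cells and 8.29, 4.13 and 3.43 in bone marrow cells.

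**Figure D3:**
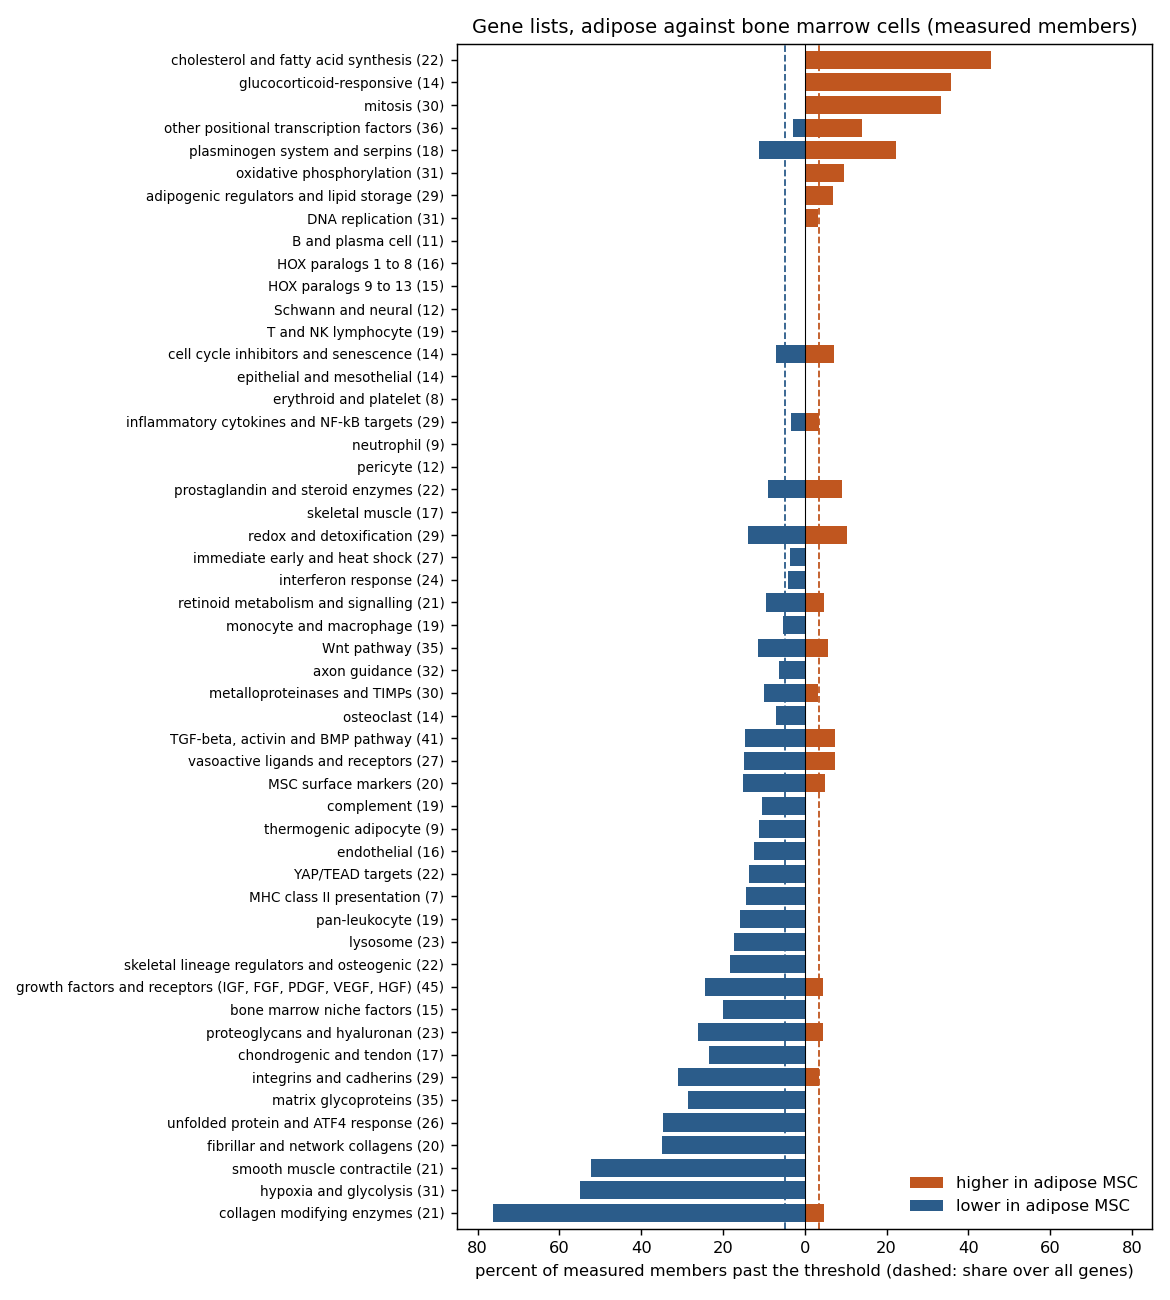
Share of the measured members of each gene list that passed limma's adjusted p under 0.05, higher or lower in adipose cells, with dashed lines at the share over all genes (3.44% higher and 4.75% lower). The longest bars are those of the collagen modifying enzymes, with 16 of 21 members lower, and of hypoxia and glycolysis, with 17 of 31 lower.

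The plot of called shares by list places the collagen modifying enzymes, hypoxia and glycolysis and smooth muscle genes at the lower end and the cholesterol, glucocorticoid and mitosis lists at the higher end, while many lists lie near the lines for all genes.

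Contractile genes of smooth muscle and myofibroblasts were lower in adipose cells in 11 of 21 cases, none was higher, and the median difference was -1.08. The number was 7 without adipose array 3, 6 without bone marrow array 1 and 6 without bone marrow array 3, and 6 genes passed in every setting. TAGLN, the actin-crosslinking protein SM22, was at 6.67, 7.63 and 5.58 in adipose cells and at 11.62, 11.49 and 11.75 in bone marrow cells (-4.996 ± 0.43, adjusted p = 0.000548). ACTG2, the gamma actin of visceral smooth muscle, was at 5.70, 7.53 and 5.76 in adipose cells and at 11.77, 11.57 and 11.93 in bone marrow cells (-5.43 ± 0.43, adjusted p = 0.000439). MYL9, the regulatory light chain, was at 8.26, 8.35 and 7.17 in adipose cells and at 11.86, 11.59 and 12.06 in bone marrow cells (-3.91 ± 0.33, adjusted p = 0.000487). Bone marrow arrays lay close together in these genes and adipose arrays did not. The thin-filament regulators CNN1 (-3.52 ± 0.33, adjusted p = 0.000801), TPM1 (-3.04 ± 0.27, adjusted p = 0.000581) and CALD1 (-1.74 ± 0.22, adjusted p = 0.00318) were lower as well. ACTA2, the actin by which myofibroblasts are recognised, was at 10.94, 9.78 and 7.74 in adipose cells and at 13.04, 12.97 and 13.11 in bone marrow cells (-3.55 ± 0.65, adjusted p = 0.0172). Its call was lost without bone marrow array 1 (0.0624), 2 (0.0598) or 3 (0.0602), and over the 6 adipose and bone marrow arrays alone (0.061). Markers of mature smooth muscle were dim in both groups and did not pass, with MYH11 at 4.17 to 4.70 in adipose cells and 4.59 to 5.27 in bone marrow cells and the coactivator MYOCD at 3.37 to 3.71 in adipose cells and 3.46 to 3.54 in bone marrow cells.

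In the TGF-beta, activin and BMP pathway the ligands differed in both directions. TGFB3 was at 3.99, 4.08 and 4.35 in adipose cells and at 7.79, 8.06 and 7.21 in bone marrow cells (-3.55 ± 0.27, adjusted p = 0.000312). INHBA, the subunit of activin A, was at 4.40, 5.04 and 4.66 in adipose cells and at 8.24, 7.98 and 8.49 in bone marrow cells (-3.54 ± 0.35, adjusted p = 0.00115). LTBP1, which holds latent TGF-beta in the matrix, differed by -3.03 ± 0.49 (adjusted p = 0.0107). The ligand BMP5 went the other way, at 5.19, 5.30 and 5.87 in adipose cells and 2.96, 3.46 and 3.23 in bone marrow cells (2.24 ± 0.22, adjusted p = 0.000975). TGFB1 did not pass, at 6.28, 5.71 and 5.51 in adipose cells and 6.85, 6.995 and 6.57 in bone marrow cells (adjusted p = 0.0765). Of the 41 measured members 3 were higher and 6 lower, of which 1 and 3 passed in every setting. Without adipose array 3, bone marrow array 1 or bone marrow array 2 a single member was higher, and without adipose array 3, bone marrow array 2 or bone marrow array 3 there were 3 lower. The receptors TGFBR2 (0.99 ± 0.21, adjusted p = 0.0299) and TGFBR3 (1.34 ± 0.27, adjusted p = 0.0256) were among the higher calls that were lost, with adjusted p-values of up to 0.106 and 0.0951 without bone marrow array 2. TGFBR3 was also lost over the 6 adipose and bone marrow arrays alone (0.0749). CCN2, the connective tissue growth factor that both TGF-beta and YAP induce, was at 7.07, 7.80 and 5.90 in adipose cells and at 10.13, 10.12 and 10.29 in bone marrow cells (-3.26 ± 0.44, adjusted p = 0.00451). It was the 1 of the 3 lower genes among 22 YAP and TEAD targets that passed in every setting, and it was the only one left without adipose array 3 or without any 1 of the bone marrow arrays.

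Among Wnt genes, 4 of 35 were lower and stayed so in every setting. They were the secreted antagonists SFRP2 and DKK3 (-2.41 ± 0.31, adjusted p = 0.0038), the agonist RSPO3 (-2.18 ± 0.29, adjusted p = 0.00449) and the receptor FZD1 (-1.65 ± 0.24, adjusted p = 0.00694). DKK3 was at 5.05, 5.05 and 4.40 in adipose cells and at 7.07, 6.76 and 7.91 in bone marrow cells. The antagonist DKK1 was higher, at 8.50, 8.83 and 8.36 in adipose cells and 5.09, 6.21 and 2.90 in bone marrow cells (3.83 ± 0.80, adjusted p = 0.0289), with the bone marrow arrays widely spread. That call was lost without adipose array 1 (0.0615), 2 (0.075) or 3 (0.0766) or bone marrow array 1 (0.0768). The 6 adipose and bone marrow arrays alone did not give it either (0.0571). DKK1 was 1 of 2 higher Wnt genes, of which none passed without adipose array 2 or 3 or bone marrow array 1 and 1 without adipose array 1 or bone marrow array 2 or 3.

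Growth factors and their receptors were lower in 11 of 45 cases and higher in 2, the median being -0.24, and 6 of the falls and both rises were kept in every setting. IGF2, an insulin-like growth factor, was at 5.80, 4.89 and 5.36 in adipose cells and at 8.71, 7.96 and 9.24 in bone marrow cells (-3.29 ± 0.33, adjusted p = 0.00122), and its carrier IGFBP2 was at 6.19, 5.25 and 5.29 in adipose cells and at 9.47, 8.96 and 9.92 in bone marrow cells (-3.88 ± 0.46, adjusted p = 0.00261). PDGFC differed by -3.19 ± 0.28 (adjusted p = 0.000577), HGF, a motility factor for epithelium, by -2.93 ± 0.39 (adjusted p = 0.00429) and HBEGF by -2.08 ± 0.25 (adjusted p = 0.00299). The VEGF family split by member. VEGFA, the main angiogenic ligand, was at 4.76, 4.07 and 5.24 in adipose cells and at 7.63, 7.30 and 7.58 in bone marrow cells (-2.81 ± 0.32, adjusted p = 0.00225), while VEGFD was higher as given above. FLT1, a VEGF receptor that also exists as a soluble trap, was higher too, at 6.18, 7.24 and 6.48 in adipose cells and 4.16, 4.54 and 3.99 in bone marrow cells (2.40 ± 0.31, adjusted p = 0.00356). Without bone marrow array 2 the number of lower members was 7, and without the second blood-derived array, which enters the estimate of the spread, 4 were higher. IGFBP5, a relative of IGFBP2, was at 8.18, 7.12 and 7.59 in adipose cells and 4.61, 4.998 and 4.74 in bone marrow cells (2.85 ± 1.15), with an adjusted p of 0.202 over 9 arrays, 0.0062 over the 6 adipose and bone marrow arrays alone and 0.00632 without that blood-derived array. PDGFRA, the platelet-derived growth factor receptor of fibroblasts, was likewise at 8.11, 8.01 and 8.34 in adipose cells and 6.69, 6.60 and 6.69 in bone marrow cells, with an adjusted p of 0.0950 over 9 arrays, 0.00429 over the 6, 0.0133 without blood-derived array 1 and 0.0325 without blood-derived array 2.

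**Figure D4:**
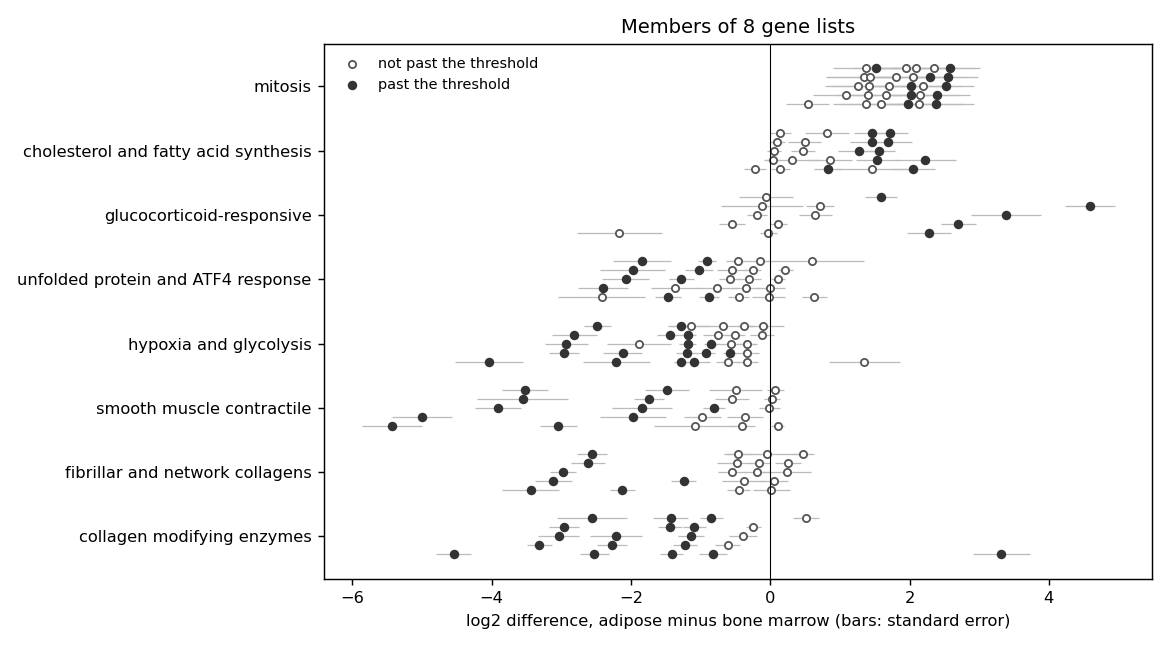
Log2 difference, adipose minus bone marrow, of each measured member of 8 gene lists, with bars for its standard error and filled points for members past limma's adjusted p under 0.05. Almost all glycolytic and collagen modifying genes lie to the lower side, and almost all mitosis and cholesterol genes to the higher side.

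The plot of list members includes the genes of hypoxia response and glycolysis. Of 31 such genes measured 17 were lower in adipose cells and none higher, the median was -1.10, and 30 of the 31 differences were negative. In 26 of them all adipose arrays were below all bone marrow arrays. Between 14 and 19 members passed when single arrays were left out, and 14 of the 17 passed in every setting. Without blood-derived array 1 a single member was higher. PGK1, a glycolytic kinase, was at 10.70, 10.83 and 10.80 in adipose cells and at 12.07, 12.03 and 12.06 in bone marrow cells (-1.27 ± 0.11, adjusted p = 0.000536). ALDOA was at 11.60, 11.37 and 11.47 in adipose cells and at 12.68, 12.62 and 12.67 in bone marrow cells (-1.18 ± 0.11, adjusted p = 0.000766). The falls of these enzymes were small and even across arrays, as they were for TPI1 (-1.18 ± 0.12, adjusted p = 0.00115), LDHA (-0.85 ± 0.11, adjusted p = 0.00327), GPI (-0.92 ± 0.12, adjusted p = 0.00385) and PKM (-1.29 ± 0.18, adjusted p = 0.0059). The glucose importer SLC2A1 (-1.20 ± 0.15, adjusted p = 0.00355) and the lactate exporter SLC16A3 (-2.93 ± 0.31, adjusted p = 0.00144), at the entry and exit of the pathway, were lower as well. BNIP3, a mitophagy receptor induced by low oxygen, was at 8.92, 8.76 and 8.79 in adipose cells and at 11.44, 11.03 and 11.44 in bone marrow cells (-2.48 ± 0.20, adjusted p = 0.000438), and CA9, a carbonic anhydrase used as a hypoxia marker, differed by -2.12 ± 0.28 (adjusted p = 0.00442). ENO2 was at 6.70, 4.52 and 5.08 in adipose cells and at 9.58, 9.04 and 9.80 in bone marrow cells (-4.04 ± 0.49, adjusted p = 0.0029). GAPDH, often used to scale expression data, was at 12.19, 12.26 and 12.26 in adipose cells and at 12.78, 12.79 and 12.89 in bone marrow cells (-0.58 ± 0.10, adjusted p = 0.014), a call lost without bone marrow array 1 (0.0521), 2 (0.0504) or 3 (0.0596). ADM, a vasodilator peptide, was the one positive member, at 1.35 ± 0.51 (adjusted p = 0.175).

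Genes of cholesterol and fatty acid synthesis were higher in adipose cells in 10 of 22 cases with none lower, and 21 of 22 differences were positive, with a median of 0.84. The count was 3 without bone marrow array 1, 3 without bone marrow array 2 and 4 without bone marrow array 3, and the median was 0.71 to 1.24 over the fits without single arrays. CYP51A1, a demethylase of sterol synthesis, was at 9.72, 10.45 and 10.90 in adipose cells and at 8.75, 8.66 and 8.52 in bone marrow cells (1.71 ± 0.26, adjusted p = 0.00808). ELOVL6, which lengthens palmitate, was at 6.68, 8.06 and 7.90 in adipose cells and at 5.43, 5.66 and 5.40 in bone marrow cells (2.05 ± 0.32, adjusted p = 0.00889). STARD4, a cholesterol carrier, was at 5.77, 6.23 and 5.38 in adipose cells and at 4.002, 4.41 and 4.30 in bone marrow cells (1.56 ± 0.23, adjusted p = 0.00673). These 3 passed in every setting. SQLE, squalene epoxidase, had 9.29, 10.02 and 10.64 in adipose cells and 8.49, 8.51 and 8.35 in bone marrow cells (1.53 ± 0.30, adjusted p = 0.0221), but 0.0564 without adipose array 2 and 0.0721, 0.0692 and 0.0769 without bone marrow arrays 1, 2 and 3. HMGCS1, which condenses the first sterol precursor, had 7.10, 8.26 and 9.21 in adipose cells and 5.92, 6.13 and 5.85 in bone marrow cells (2.22 ± 0.45, adjusted p = 0.0251), but 0.0638 without adipose array 2 and 0.084, 0.0723 and 0.0837 without bone marrow arrays 1, 2 and 3. Over the 6 adipose and bone marrow arrays alone the adjusted p was 0.0641 for SQLE and 0.071 for HMGCS1. Adipose array 1 was the lowest of its group in all of these but STARD4. SREBF2, which encodes the transcription factor that drives the pathway after proteolytic release, differed by 0.06 ± 0.10 (adjusted p = 0.797).

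Subunits of oxidative phosphorylation were higher in 3 of 31 cases, with 27 differences positive and a median of 0.26. All adipose arrays were above all bone marrow arrays in 20 of them. NDUFA6, of complex I, passed in every setting, at 11.08, 10.96 and 10.99 in adipose cells and 10.21, 10.41 and 10.18 in bone marrow cells (0.75 ± 0.11, adjusted p = 0.0072). A single subunit passed without bone marrow array 1 or bone marrow array 3, and 5 passed without adipose array 1. The unfolded protein and ATF4 response was lower in 9 of 26 cases and higher in none, with a median of -0.57, and the count was 5 without bone marrow array 1 and 5 without bone marrow array 2. ATF4, the transcription factor of amino acid shortage, averaged 8.94 ± 0.16 in adipose cells and 10.22 ± 0.20 in bone marrow cells (SD, n = 3 each), a difference of -1.28 ± 0.18 (adjusted p = 0.00577). ASNS, asparagine synthetase and a target of it, was at 8.04, 9.22 and 8.08 in adipose cells and at 10.59, 10.69 and 10.29 in bone marrow cells (-2.08 ± 0.33, adjusted p = 0.00991). XBP1 (-0.91 ± 0.13, adjusted p = 0.00509) and the disulfide isomerase PDIA4 (-1.47 ± 0.19, adjusted p = 0.0036) of the endoplasmic reticulum were lower, while HSPA5, its main chaperone, differed by -0.88 ± 0.15 (adjusted p = 0.0124) with the call lost without bone marrow array 1 (0.0502) or 2 (0.0545).

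**Figure D5:**
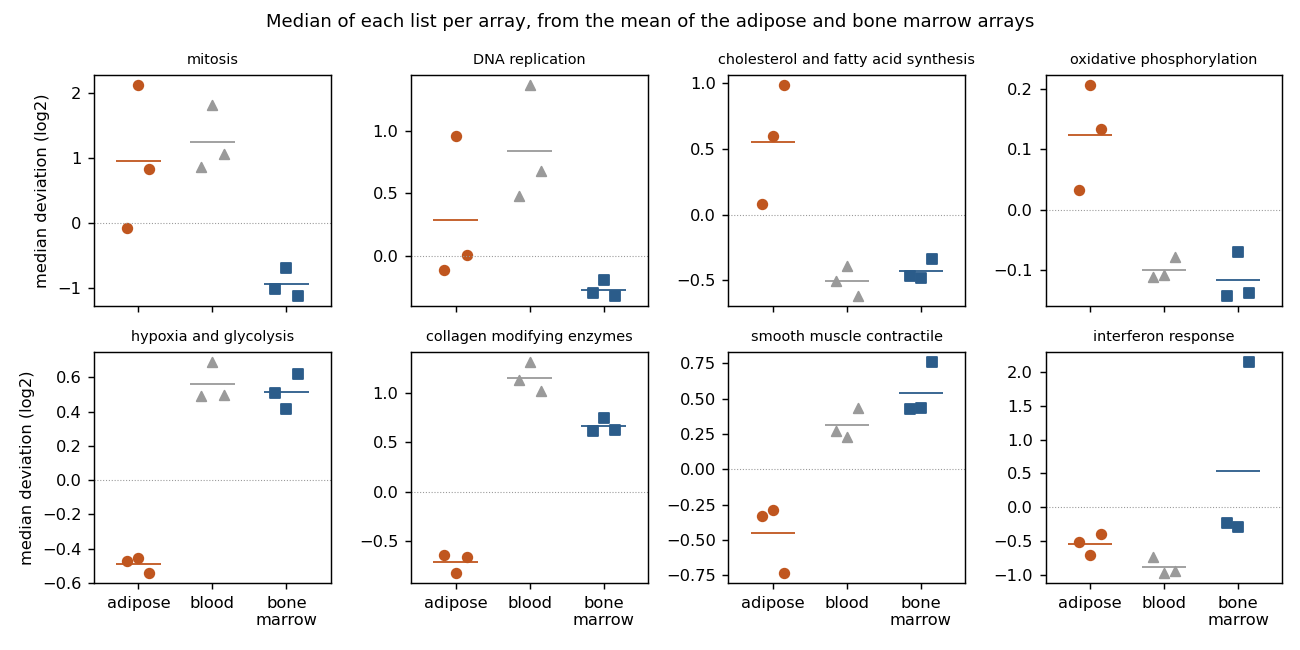
Median deviation of the members of 8 gene lists from their mean over the adipose and bone marrow arrays, in log2 units, on every adipose, blood-derived and bone marrow array, with a horizontal line at each group's mean. Adipose array 2 is at 2.13 for mitosis and bone marrow array 3 at 2.14 for the interferon response, each apart from its group.

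Mitotic genes showed the widest spread among adipose arrays, as the plot of lists by array shows. All 30 measured members had positive differences, 24 of them without overlap of the groups, and the median was 1.97. Of these 10 passed and none was lower. The count was 6 without adipose array 2, where the median was 1.34, 4 without adipose array 3, 3, 5 and 3 without bone marrow arrays 1, 2 and 3, and 6 without blood-derived array 3. Without adipose array 1 it was 26. CDK1, the kinase that starts mitosis, was at 8.26, 9.73 and 8.78 in adipose cells and at 6.25, 6.76 and 6.16 in bone marrow cells (2.53 ± 0.39, adjusted p = 0.00843). Its partner CCNB2 was at 7.38, 9.31 and 8.44 in adipose cells and at 5.89, 6.00 and 5.52 in bone marrow cells (2.58 ± 0.43, adjusted p = 0.0119). AURKA, a spindle kinase, was at 7.92, 8.82 and 7.97 in adipose cells and at 6.21, 6.37 and 6.08 in bone marrow cells (2.02 ± 0.27, adjusted p = 0.00442). These 3 passed in every setting. MKI67, the proliferation marker, was at 4.77, 6.42 and 4.80 in adipose cells and at 4.05, 4.09 and 3.73 in bone marrow cells and did not pass (1.37 ± 0.48, adjusted p = 0.144). Genes of DNA replication were positive in 31 of 31 cases, with adipose array 2 the highest in 27 of them. Their median of 0.57 was 0.25 without that array, and the 1 that passed, MCM6 (1.28 ± 0.30, adjusted p = 0.0454), did not pass without it (0.0729), without adipose array 3 (0.0888), without bone marrow array 1 (0.119), 2 (0.102) or 3 (0.14), or without blood-derived array 1 (0.0526) or 3 (0.0717), and 2 passed without adipose array 1. MCM6 did not pass over the 6 adipose and bone marrow arrays alone either (0.0762). PCNA, the replication clamp, differed by 0.09 ± 0.29 (adjusted p = 0.898).

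Fate regulators were examined for the lineages these tissues supply. Of 29 adipogenic and lipid storage genes 2 were higher in adipose cells, and the median was 0.14. EBF2, a transcription factor of fat precursors, was at 5.64, 5.17 and 5.43 in adipose cells and at 3.89, 3.73 and 3.94 in bone marrow cells (1.56 ± 0.17, adjusted p = 0.00149) and passed in every setting. CIDEC, a lipid droplet protein, was at 5.62, 7.83 and 6.66 in adipose cells and at 4.15, 4.64 and 4.02 in bone marrow cells (2.43 ± 0.47, adjusted p = 0.0214), with the call lost without adipose array 3 (0.0643) or bone marrow array 1 (0.0761), 2 (0.051) or 3 (0.0764). That call was also lost over the 6 adipose and bone marrow arrays alone (0.0686). FABP4, the fatty acid carrier of adipocytes, was at 6.25, 11.27 and 8.14 in adipose cells and at 6.28, 5.03 and 5.29 in bone marrow cells. Its difference of 3.02 ± 1.05 did not pass (adjusted p = 0.144), and without adipose array 1, the one that overlapped the bone marrow arrays, it did (0.0309). PPARG, the master regulator, was at 5.10, 6.89 and 6.66 in adipose cells and at 5.67, 4.36 and 5.60 in bone marrow cells (adjusted p = 0.296). Products of mature adipocytes were at like levels in both groups and did not pass, with LEP at 3.69 to 4.20 in adipose cells and 3.86 to 4.04 in bone marrow cells and PLIN1 at 5.91 to 6.74 in adipose cells and 6.19 to 6.48 in bone marrow cells. Without adipose array 1 the number called was 5, and without adipose array 3 or any 1 bone marrow array it was 1.

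Genes known to respond to glucocorticoids were higher in 5 of 14 cases, all in every setting, and none was lower, although 1 was without adipose array 1. FKBP5, which binds the receptor complex, was at 10.60, 10.42 and 10.34 in adipose cells and at 5.88, 5.75 and 5.95 in bone marrow cells (4.59 ± 0.36, 24.1-fold, adjusted p = 0.000369). GLUL, glutamine synthetase, was at 10.16, 9.60 and 9.40 in adipose cells and at 5.53, 6.30 and 7.16 in bone marrow cells (3.39 ± 0.50, adjusted p = 0.00722). CRISPLD2, a secreted lipopolysaccharide-binding protein, differed by 2.70 ± 0.25 (adjusted p = 0.000801), the monoamine oxidase MAOA by 2.28 ± 0.32 (adjusted p = 0.00512) and the transcription factor ZBTB16 by 1.59 ± 0.23 (adjusted p = 0.00584). The receptor NR3C1 itself did not pass and was at 6.72, 6.84 and 6.32 in adipose cells and 6.88, 7.39 and 7.26 in bone marrow cells (adjusted p = 0.126). TSC22D3 (0.72 ± 0.20, adjusted p = 0.0795) and SGK1 (0.65 ± 0.24, adjusted p = 0.162) did not pass either. TSC22D3 passed without adipose array 2 (0.0239), among other settings, and SGK1 without adipose array 3 (0.0166). In the list as a whole 6 of 14 differences were negative. The labels name no steroid in the medium of any group.

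Skeletal lineage genes were lower in 4 of 22 cases and cartilage and tendon genes in 4 of 17, with none higher. Of these, 3 and 4 passed in every setting. The skeletal call that was lost was that of SPP1, a difference of -3.42. Its adjusted p was 0.0964 over the 6 adipose and bone marrow arrays alone and 0.136 without bone marrow array 1. In 18 of the 22 skeletal genes the difference was negative. DLX5, a homeodomain factor of bone formation, was at 4.74, 4.54 and 4.03 in adipose cells and at 7.95, 8.41 and 7.16 in bone marrow cells (-3.40 ± 0.40, adjusted p = 0.0025). SCX, scleraxis, the transcription factor of tendon cells, was at 5.51, 6.38 and 4.87 in adipose cells and at 10.79, 9.77 and 9.64 in bone marrow cells (-4.48 ± 0.69, adjusted p = 0.0083). MKX, mohawk, another tendon regulator, was at 2.80, 3.10 and 2.90 in adipose cells and at 5.79, 5.20 and 4.73 in bone marrow cells (-2.30 ± 0.27, adjusted p = 0.00243). Regulators of the committed osteoblast differed by less and did not pass. RUNX2 was at 4.40 to 4.61 in adipose cells and at 4.69 to 4.84 in bone marrow cells (-0.25 ± 0.13, adjusted p = 0.319), and SP7 differed by -0.10 ± 0.15 (adjusted p = 0.776). IBSP, a bone matrix sialoprotein, was at 3.94, 3.44 and 3.71 in adipose cells and at 4.78, 9.32 and 6.44 in bone marrow cells, where the horses differed widely (adjusted p = 0.0913). Of the factors by which marrow stroma supports blood stem cells, 3 of 15 were lower, and KITLG, stem cell factor, was the one kept in every setting, at 5.35, 5.72 and 5.57 in adipose cells and 7.95, 7.76 and 8.27 in bone marrow cells (-2.45 ± 0.32, adjusted p = 0.00382). It was the only one left without adipose array 1 or 2, bone marrow array 1 or blood-derived array 1. CXCL12 did not pass and was at 9.60, 8.15 and 9.09 in adipose cells and 8.20, 7.04 and 10.32 in bone marrow cells (adjusted p = 0.846). VCAM1, which tethers leukocytes, was at 4.80, 4.30 and 6.74 in adipose cells and at 8.48, 7.36 and 10.68 in bone marrow cells (-3.56 ± 0.87), with an adjusted p of 0.0506 that fell to 0.0417 without adipose array 3 and 0.0436 without bone marrow array 2. LEPR, which marks marrow stroma in mice, was dim, at 2.79 to 3.21 in adipose cells and 2.86 to 2.91 in bone marrow cells.

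HOX genes keep a record of the body position of a mesenchymal cell's origin. None of the 16 measured members of paralog groups HOX1 to HOX8 and none of the 15 of HOX9 to HOX13 passed in limma's test, while 4 in each list had an unadjusted p under 0.05. HOXB3 was at 5.22, 4.42 and 4.22 in adipose cells and at 5.34, 5.55 and 5.74 in bone marrow cells (-0.92 ± 0.25, adjusted p = 0.0697). HOXC10 was at 5.11, 4.99 and 5.72 in adipose cells and at 4.80, 4.72 and 4.72 in bone marrow cells (0.52 ± 0.20, adjusted p = 0.178), and HOXA10 was at 6.74 to 6.87 in adipose cells and 6.54 to 6.75 in bone marrow cells. Without adipose array 1 there was 1 lower member in the first list and 1 higher member in the second, and without bone marrow array 3 there were 2 lower members in the second. HOXB3 was lower without adipose array 1 (0.00782) and with 1 probe set per gene (0.0383), among other settings. HOXD11 was lower without bone marrow array 3 (-1.85, adjusted p = 0.047). In the second list 11 differences were positive and 4 negative. Other position-bearing transcription factors were higher in 5 of 36 cases and lower in 1. EMX2, a homeodomain factor of the forebrain and the urogenital system, was at 6.79, 7.34 and 7.08 in adipose cells and at 4.32, 4.62 and 4.15 in bone marrow cells (2.70 ± 0.18, adjusted p = 0.00021). SHOX2, of limb and heart, was at 6.84, 7.09 and 6.69 in adipose cells and at 5.08, 4.69 and 4.58 in bone marrow cells (2.08 ± 0.26, adjusted p = 0.00343). MEIS3, a cofactor of HOX proteins, was lower, at 5.14, 4.50 and 4.57 in adipose cells and 6.53, 6.31 and 6.06 in bone marrow cells (-1.56 ± 0.21, adjusted p = 0.00462). The number of higher members was 3 without adipose array 3 or any 1 bone marrow array, and 2 were lower without blood-derived array 1. The calls lost were those of TBX15, IRX1 and TBX3, with differences from 1.02 to 1.43.

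Inflammatory cytokines and NF-kB targets included PTX3 as the 1 higher and SAA1 as the 1 lower of 29 measured members, and the median of the list was -0.04. CXCL1, a neutrophil attractant, was at 11.66, 11.54 and 10.64 in adipose cells and at 10.28, 9.76 and 8.60 in bone marrow cells and did not pass (1.73 ± 0.54, adjusted p = 0.107). IL6 was at 7.30, 5.14 and 4.45 in adipose cells and at 5.59, 5.49 and 9.45 in bone marrow cells (adjusted p = 0.575), so neither group was uniform. The interferon response had a median of -1.09, which was -0.15 without bone marrow array 3, and IFI27 was the 1 of its 24 members that was lower (-0.56 ± 0.11, adjusted p = 0.0206), a call lost without adipose array 3 (0.063) or bone marrow array 1 (0.071), 2 (0.0788) or 3 (0.0701). IFI27 did not pass over the 6 adipose and bone marrow arrays alone either (0.0545). MX1, an antiviral GTPase, was at 3.79, 3.60 and 4.08 in adipose cells and at 5.47, 5.90 and 9.32 in bone marrow cells (adjusted p = 0.086), with a difference of -3.08 that was -1.86 and passed without bone marrow array 3 (0.0391). ISG15, a ubiquitin-like modifier, was at 7.16, 6.64 and 7.23 in adipose cells and at 8.22, 7.99 and 11.86 in bone marrow cells (adjusted p = 0.171), and its difference of -2.35 was likewise -1.10 and passed without that array (0.0343). In all 1 member was higher and 3 were lower without it. The class II antigen chain DRA followed the same array, at 3.82, 3.85 and 4.81 in adipose cells and 7.07, 5.38 and 10.92 in bone marrow cells (adjusted p = 0.117), and did not pass without it either (-2.06, adjusted p = 0.0917). Of 19 complement genes 2 were lower, MASP1 (adjusted p = 0.0457) and CFI (adjusted p = 0.049), and at most 1 of them passed when any array was left out. Neither passed over the 6 adipose and bone marrow arrays alone (0.111 and 0.0944). C1S, a protease of the classical pathway, was at 8.76, 5.76 and 7.51 in adipose cells and at 9.47, 9.15 and 10.93 in bone marrow cells (adjusted p = 0.0874).

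Vascular genes were among those with large differences of single members. Of 27 vasoactive ligands and receptors 2 were higher, AGTR1 and the endothelin-converting enzyme ECE1 (0.86 ± 0.13, adjusted p = 0.00757), and 4 were lower, 3 of them in every setting. EDN1, the vasoconstrictor peptide that ECE1 activates, was at 4.89, 4.06 and 5.03 in adipose cells and at 8.90, 9.31 and 8.63 in bone marrow cells (-4.29 ± 0.42, adjusted p = 0.000975). The nitric oxide receptor subunit GUCY1A1 (-2.06 ± 0.27, adjusted p = 0.00434) and the phosphodiesterase PDE5A that ends its signal (-1.24 ± 0.20, adjusted p = 0.00933) were lower too. In the plasminogen and coagulation list 4 of 18 were higher and 2 lower, and without any 1 bone marrow array 2 were higher. TFPI, the inhibitor of tissue factor, was at 11.71, 11.90 and 11.94 in adipose cells and at 8.18, 7.93 and 8.73 in bone marrow cells (3.57 ± 0.29, adjusted p = 0.000442). PROCR, the receptor of protein C, was at 10.19, 10.03 and 10.53 in adipose cells and at 7.82, 7.96 and 7.89 in bone marrow cells (2.36 ± 0.39, adjusted p = 0.0113). Both act against clotting. The other higher members were the thrombin receptor F2R (1.83, adjusted p = 0.0177) and THBD (0.68, adjusted p = 0.0432). Their calls were lost without any 1 bone marrow array, and that of THBD also over the 6 adipose and bone marrow arrays alone (0.0882). The protease inhibitors A2M, at 4.08, 3.72 and 3.93 in adipose cells and 7.13, 7.14 and 7.99 in bone marrow cells (-3.51 ± 0.24, adjusted p = 0.00021), and SERPINE2 (-2.54 ± 0.39, adjusted p = 0.00843) were lower.

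Adhesion receptors were lower in 9 of 29 cases, 6 of them in every setting, and higher in 1. CDH11, the cadherin of mesenchyme and osteoblasts, was at 5.16, 5.32 and 4.88 in adipose cells and at 8.91, 9.34 and 9.13 in bone marrow cells (-4.005 ± 0.22, adjusted p = 8.76e-05). ITGA11, a collagen-binding integrin of fibroblasts, was at 4.50, 4.17 and 4.55 in adipose cells and at 7.08, 7.16 and 6.91 in bone marrow cells (-2.64 ± 0.19, adjusted p = 0.000264). ITGA4, the integrin chain that binds VCAM1 and fibronectin, was at 4.55, 7.20 and 4.36 in adipose cells and at 9.67, 9.59 and 10.04 in bone marrow cells (-4.40 ± 0.72, adjusted p = 0.0112), so adipose array 2 was nearer to the bone marrow arrays than its group was. ITGB5 (-2.10 ± 0.26, adjusted p = 0.00322) and ITGB1, the common partner chain (-1.03 ± 0.16, adjusted p = 0.00856), were lower, and the integrin-like ITGBL1 was higher, at 10.53, 9.36 and 10.40 in adipose cells and 7.97, 7.74 and 7.47 in bone marrow cells (2.37 ± 0.38, adjusted p = 0.00957). Without adipose array 2 or blood-derived array 3, 2 were higher. Among 20 MSC surface markers CD44 was higher and 3 were lower, the median being -0.02, and 2 were higher without adipose array 2 or blood-derived array 1 or 2. Of the 3 falls 2 passed in every setting. ENG, a co-receptor of TGF-beta, was at 6.03, 6.17 and 6.24 in adipose cells and at 6.93, 6.93 and 6.98 in bone marrow cells (-0.80 ± 0.12, adjusted p = 0.008). CD34, which marks freshly isolated adipose stroma in humans, was at 5.71, 4.49 and 5.20 in adipose cells and at 4.34, 4.41 and 3.87 in bone marrow cells and did not pass (0.93 ± 0.29, adjusted p = 0.103), except without adipose array 2 (0.0205).

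Smaller numbers passed in lists of other functions. SLIT2, a repellent guidance cue, was at 3.76, 3.57 and 3.44 in adipose cells and at 5.65, 5.80 and 5.84 in bone marrow cells (-2.17 ± 0.12, adjusted p = 0.000104), and with PLXNA2 (-1.39 ± 0.23, adjusted p = 0.012) made up the 2 of 32 axon guidance genes that were lower. Without blood-derived array 1 there were 4 lower, and without adipose array 1 there were 2 higher. Among lysosomal genes 4 of 23 were lower, of which the cathepsins CTSC (-2.31 ± 0.27, adjusted p = 0.00247) and CTSF (-1.26 ± 0.18, adjusted p = 0.00585) passed in every setting. They were the only lower ones left without adipose array 2 or 3, any 1 bone marrow array or blood-derived array 2 or 3, and 2 members were higher without adipose array 2 and 1 without bone marrow array 3. DIO2, the deiodinase that activates thyroid hormone in brown fat, was at 3.63, 3.71 and 4.32 in adipose cells and at 5.59, 5.58 and 5.41 in bone marrow cells (-1.64 ± 0.22, adjusted p = 0.00455) and was the 1 of 9 thermogenic genes to pass. CYP1B1, a monooxygenase of steroids and retinoids, was lower (-1.59 ± 0.26, adjusted p = 0.0113). It was 1 of the 4 of 29 redox and detoxification genes that were lower, while 3, ALDH1A1 and MAOA among them, were higher, and without bone marrow arrays 2 and 3 there were 1 and 2 lower. Of the falls 1 and of the rises 2 passed in every setting. The other rise was that of SOD1 (0.44, adjusted p = 0.0495), and 2 members were higher whichever array was left out. In the retinoid list ALDH1A1 was the 1 of 21 that was higher, with 2 higher without adipose array 2, and 2 were lower, neither in every setting. Of these CRABP2, a carrier of retinoic acid to its receptor, was at 7.45, 7.95 and 7.28 in adipose cells and 10.16, 10.16 and 8.81 in bone marrow cells (-2.14 ± 0.42, adjusted p = 0.0229). Without adipose array 1 or 3 or bone marrow array 1 or 2 the adjusted p of CRABP2 was 0.0554, 0.0775, 0.084 and 0.0851. Of 22 prostaglandin and steroid genes 2 were higher and 2 lower, and none was higher without adipose array 3 or bone marrow array 1 or 2, the bone marrow arrays also leaving 1 lower. HPGD, which inactivates prostaglandins, was at 6.52, 4.49 and 6.18 in adipose cells and at 2.90, 3.25 and 3.60 in bone marrow cells (2.48 ± 0.46, adjusted p = 0.0187), and missed the threshold without adipose array 3 (0.0661) or bone marrow array 1 (0.0739) or 2 (0.0657). HPGD also missed it over the 6 adipose and bone marrow arrays alone (0.064). PTGS2, the inducible cyclooxygenase, differed by -0.21 ± 0.71 (adjusted p = 0.906).

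The lists for other cell types held at most 3 called genes each. Lower in adipose cells were 15.8% of pan-leukocyte and 12.5% of endothelial genes, against 4.75% of all genes. The shares were 7.14% for osteoclast and 5.26% for monocyte and macrophage genes. Of 19 pan-leukocyte genes 3 were lower in adipose cells and none higher, the mean level of the list being 4.69 to 4.73 on adipose arrays and 5.08 to 5.50 on bone marrow arrays, and ITGA4, which stromal cells also express, was the 1 that passed in every setting. It was the only one left without adipose array 2 or 3, bone marrow array 1 or 3 or blood-derived array 2 or 3. Among 19 monocyte and macrophage genes, with mean levels of 4.45 to 4.63 on adipose arrays and 4.60 to 5.39 on bone marrow arrays, TYROBP, a signalling adaptor of myeloid cells, was lower. It was at 4.47, 4.60 and 4.52 in adipose cells and at 8.12, 6.32 and 6.58 in bone marrow cells (-2.48 ± 0.43, adjusted p = 0.0132), and bone marrow array 1 was the highest in 10 of the 19. S100A12, a neutrophil and monocyte protein, was at 4.72, 4.65 and 4.02 in adipose cells and at 10.16, 7.21 and 5.79 in bone marrow cells but did not pass (adjusted p = 0.0852). The part of such cells in the results was not tested. CD68, a lysosomal protein of macrophages that stromal cells also make, was at 11.34, 8.72 and 9.84 in adipose cells and at 9.02, 8.22 and 8.38 in bone marrow cells (adjusted p = 0.237). The endothelial genes PECAM1 and CDH5 were dim in both groups, at 3.27 to 3.31 and 4.47 to 4.54 in adipose cells and 2.89 to 3.27 and 4.33 to 4.53 in bone marrow cells. PROX1 and LYVE1 were the 2 of 16 endothelial genes that were lower. Both calls were lost without adipose array 2 (0.0807 and 0.0641) or bone marrow array 3 (0.115 and 0.0901). They were also lost over the 6 adipose and bone marrow arrays alone (0.065 and 0.073). ATP6V0D2 was the 1 of 14 osteoclast genes that was lower, a call lost without bone marrow array 1 (0.0697) or 3 (0.0662), among others. No member of the T and NK lymphocyte, B and plasma cell, neutrophil, erythroid, pericyte, Schwann, skeletal muscle or epithelial lists passed in limma's test, and 1 to 3 members of each had an unadjusted p under 0.05. A single neutrophil gene was lower without bone marrow array 3, and a single Schwann or neural gene was higher without blood-derived array 3. None of the 8 sex-linked genes listed was measured by a probe set naming it alone, so sex could not be compared.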

How the data were processed

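The authors deposited a table of log2 intensities that look normalized, with a row for each probe set. The submitters' processing notes name Transcriptome Analysis Console 3, Affymetrix Expression Console and Partek 6.16.0419. Summarization, normalization and build were not given in the sources used here. No further normalization was applied, and a group-means model over all 9 arrays was fitted with limma 3.58.1 (R 4.3.3; lmFit, eBayes, 6 residual degrees of freedom), and the contrast adipose minus bone marrow was tested two-sided, with Benjamini-Hochberg adjustment over all 30559 probe sets and a threshold of 0.05. An adjusted p given with no setting comes from this fit. One given for a setting, such as a left-out array, comes from a refit under that setting with its own adjustment. The procedure was tested on simulated data.

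Genes were named from the platform annotation, with 27 older symbols in the lists resolved. Probe sets naming several genes (343) or none (13427) were tested but are not described. The members and the gene lists were chosen with earlier results of these data known. Named genes were the 15 largest rises and 15 largest falls without overlap of the arrays, in each list up to 4 called members per direction by adjusted p (or up to 2 values where none passed), and the cell type markers; further genes were added after their values were seen. Nothing says whether the samples of a group were prepared separately beyond the horse labels, so p-values measure the spread between these samples. The repository numbers of the adipose arrays do not follow those of the rest, and no source says if they were run separately. The alternatives were the 6 arrays alone, quantile normalization, median centring, dim probe sets left out (not above the median of all values on at least 3 arrays), limma-trend, robust eBayes, array weights, a replicate block, 1 probe set or the mean per gene, a 2-fold criterion, a threshold of 0.01, and each array left out.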

Additional observations from a re-analysis of the deposited data

How the results depend on the processing

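The 19 alternative fits are those of the methods apart from the 2-fold criterion and the threshold of 0.01, which were applied to counts only. Of the 253 named probe sets that passed, none changed direction in them, 161 passed in all and 92 were lost in at least 1, and of 98 that did not pass, 31 passed in at least 1. Leaving out single arrays gave 849 to 2012 called probe sets in place of 1857, with 355 to 1050 higher and 494 to 962 lower in adipose cells. The 6 adipose and bone marrow arrays alone called 1245, of which 555 were higher. A 2-fold criterion left 1037 (485 higher, 552 lower), and a threshold of 0.01 left 628 (254 higher, 374 lower). With the replicate number as a block 1492 passed. Residuals of adipose and bone marrow arrays of the same number correlated at 0.01 to 0.04, and at -0.04 to 0.01 for different numbers. Correlations this weak, over 3 arrays per group, cannot show whether the numbers pair the samples. Taking 1 probe set per gene, 1995 of 16661 passed. Of 988 list medians, 36 moved. With 3 arrays per group and no measure of signal over background, dim and small differences are the least certain, and any batch of the adipose arrays cannot be told apart from the tissue.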

Other observations

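Most called genes, 1167, were in none of the lists. The ones given here were picked after their values were seen. PLA2G7, a phospholipase that degrades platelet-activating factor, was at 10.49, 10.28 and 10.30 in adipose cells and at 6.68, 5.38 and 7.46 in bone marrow cells (3.85 ± 0.61, adjusted p = 0.00933). HSD17B7, an enzyme of sterol synthesis, was at 8.86, 9.69 and 10.41 in adipose cells and at 5.72, 6.49 and 6.54 in bone marrow cells (3.41 ± 0.39, adjusted p = 0.00225). MBOAT1, a lysophospholipid acyltransferase, differed by 3.90 ± 0.28 (adjusted p = 0.000247), ACSS2, which makes acetyl-CoA from acetate, by 2.48 ± 0.40 (adjusted p = 0.0107) and MEDAG, a gene of adipocyte differentiation, by 2.71 ± 0.41 (adjusted p = 0.0078). FOXO1, a transcription factor held out of the nucleus by insulin, was at 9.70, 9.10 and 9.71 in adipose cells and at 7.55, 7.10 and 6.99 in bone marrow cells (2.29 ± 0.26, adjusted p = 0.00223). OSR2, a transcription factor of limb and palate, differed by 2.70 ± 0.38 (adjusted p = 0.00584), and DISP1, which releases hedgehog ligands, by 3.35 ± 0.20 (adjusted p = 0.000121).

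Among genes lower in adipose cells, GJA1, the gap junction protein connexin, was at 7.59, 7.34 and 7.26 in adipose cells and at 10.82, 10.81 and 10.80 in bone marrow cells (-3.41 ± 0.16, adjusted p = 5.12e-05). PAPSS2, which makes the sulfate donor of cells, was lower (-3.38 ± 0.17, adjusted p = 8.39e-05), and so was SULF1, which removes sulfate from heparan sulfate (-3.99 ± 0.26, adjusted p = 0.000193). PPP1R3C, which targets a phosphatase to glycogen, was at 3.61, 3.63 and 3.45 in adipose cells and at 7.52, 6.54 and 8.21 in bone marrow cells (-3.86 ± 0.35, adjusted p = 0.000741). MGLL, the last lipase of triglyceride breakdown, was at 4.56, 3.99 and 4.75 in adipose cells and 7.68, 8.47 and 6.44 in bone marrow cells (-3.10 ± 0.47, adjusted p = 0.00797). ACKR3, a scavenging receptor for CXCL12, was at 7.83, 5.51 and 7.55 in adipose cells and at 9.95, 9.93 and 10.13 in bone marrow cells (-3.04 ± 0.52, adjusted p = 0.0127). The genes of these paragraphs passed in each of the 19 alternative fits at the threshold of 0.05.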
